A study of Homo sapiens with 3 samples.

Results

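The baseline transcriptome of 293T cells was read from 1 Illumina expression array, that of the control transfection. Its members were the genes with at least 1 probe assigned to a single gene symbol by the platform annotation and a detection p under 0.01 on this array. Each gene was represented by its brightest probe. By this rule 11293 of 20046 named genes were detected, or 56.3%, and 8753 were not. The rule sets which genes count as detected, so the signals and ranks below are descriptions of 1 array and carry no test and no replicate error.

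293T is a line derived from HEK293, which was made from human embryonic kidney cells with sheared adenovirus DNA, and it carries in addition the SV40 large T antigen. The series held 3 arrays of these cells, 2 of them after transfection with different siRNAs against TARBP2 and 1 control. The sample labels call the control transfection siControl, while the series' design text calls those cells mock-transfected and the cells metastatic. No genotype beyond the line itself was given, and the control group is 1 sample of 1 line. Cells were grown in medium with 10% fetal bovine serum and transfected with a lipid reagent, and 48 h after transfection total RNA was isolated with a DNase step on the column and given a biotin label.

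Which genes a cell line transcribes depends on programmes of different breadth. Genes for translation, energy supply, the cytoskeleton and transcription itself are used by nearly every cell, lineage genes are used by a few cell types, and signalling genes lie between, since most cells carry the shared enzymes of a pathway but not each of its receptors and ligands. HEK293 lines have been used as a model of kidney cells, yet reports on them have also described neuronal and adrenal features, so marker lists of these tissues were set side by side. Signal on such arrays is the brightness of beads that carry a probe, and probes bind their targets unequally. A rank by signal therefore gives the order of probe signals and not the order of transcript amounts, and a gene below the threshold was not above background rather than absent.

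Signals of the detected genes ran from 78.8 to 30012.6 intensity units, with a median of 452.2 and quartiles of 169.3 and 1259.8. The genes not detected lay between 36.2 and 78.8 units, with a median of 59.7. The detection p moved in steps of 0.0013, and 9513 detected genes (84.2%) had a detection p of 0. At the threshold, CPXM1, FUT8-AS1 and PLGLA lay just inside, each with 78.8 units and a detection p of 0.00909. Just outside lay CHST13 and FAM25C, with 78.8 units and 0.01039, and DBF4B with 78.7 units and 0.01169.

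The calls could be checked for repeatability on the other arrays of the series. Of the detected genes 10789 (95.5%) were detected on both of the others, 322 on 1 of them and 182 on neither. Among the 1780 genes with a detection p above 0 on the control array the share was 71.9%, against 9510 of the 9513 genes at a detection p of 0. The dimmest calls were thus the least repeatable, and the 3 arrays differed in treatment as well. Mean signals were 680.4 and 514.3 units on the knockdown arrays and 528.5 on the control array. As a check of the labels, TARBP2 had 126.8 and 93.7 units on 1 probe in the knockdown samples, against 232.4 units in the control, and 138.2 and 101.8 units on the other probe, against 341.7 units. The control had the highest signal at both probes.

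Several probes were present for 6691 genes. In 2310 of these every probe was detected, in 2189 some were, and in 2192 none was. Where every probe was detected, the brightest exceeded the dimmest by a median of 2.31-fold, and in 310 genes by over 10-fold. Detection was also more frequent in genes with more probes, at 71.1% of genes with 3 probes and 64.8% of those with 2, against 50.9% of those with 1. Where only 1 value is given for a gene below, it is that of the brightest probe. Other probes of that gene may be dimmer or not above background.

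The 25 brightest genes were led by the machinery of translation. EEF1A1, which brings aminoacyl-tRNA to the ribosome, was the brightest gene, at 30012.6, 29531.4 and 27514.4 units on 3 of its probes and 761.1 units on the other. TPT1, a translationally controlled protein of growing cells, followed at 28026.9 units, and RPL6, a protein of the large ribosomal subunit, at 27101.6 units. Among the 25 were 13 cytosolic ribosomal protein genes, which besides RPL6 were RPS19 (25500.0 units), RPL41 (25321.5 units), RPLP1 (24447.9 units), RPLP2 (24325.7 units) and, between 24017.2 and 21931.0 units, RPS12, RPS16, RPL32, RPS10, RPS29, RPL18, RPL38 and RPS15, together with NACA (21820.7 units), which binds nascent chains at the ribosome. ACTG1, the cytoplasmic gamma actin, had 24916.5 units, the tubulin TUBA1A 22931.0 units, the ATP synthase subunit ATP5F1B 23454.5 units, the ADP/ATP carrier SLC25A5 22509.8 units and the chaperone HSP90AA1 22732.5 units.

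Some names among the brightest genes rested on probes that disagree or on near-identical copies. RPSAP9 (26057.3 units, its other probe at 82.8) is a processed copy of the ribosomal protein gene RPSA, and the source of its signal is uncertain for that reason. Probes also disagreed for some ribosomal protein genes, such as RPL41 (25321.5 and 134.1 units) and RPL32 (23278.1 units, its other probes at 366.6 or less). RPS29 had 22850.9 and 22694.4 units but 207.9 on its dimmest probe, and HSP90AA1 22732.5 and 20302.1 units but 126.2 on its dimmest. LAIR1, an inhibitory receptor of leukocytes, ranked 20 with 22474.5 units on 1 probe and 64.4 units, not above background, on the other. CLEC2D, a lectin-like ligand of natural killer cell receptors, ranked 23 with 22075.2 units on 1 of 5 probes, while the rest had 181.2, 60.6, 57.4 and 55.8 units. CLUAP1, a protein of ciliary transport, had 24603.4 units on its brightest probe and 381.4 units or less on the remaining 4. Further genes of this kind, picked after their values were seen, were CCR6 (9056.1, 66.0 and 62.7 units), LILRB3 (5912.8 and 72.2 units), ITIH5 (14788.6 units on 1 probe, the remaining 4 at 66.5 or less), AKR1D1 (5556.4 and 62.8 units) and SLC7A5P2 (19958.0, 65.1 and 55.4 units). What these single bright probes bound was not tested, and the ranks of these genes are uncertain.

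To place the classes of genes in this ranking, 38 lists of housekeeping, lineage and signalling genes were read. Of 209 housekeeping genes with a named probe 189 were detected (90.4%), with a median rank of 837, and 104 lay in the brightest 10% of detected genes. Of 486 signalling genes 294 were detected (60.5%), with a median rank of 6956.5, and 8 lay in the brightest 10%. Of 420 lineage genes 147 were detected, with a median rank of 8668, and 5 lay in the brightest 10%. The share was 56.3% over all named genes and 60.6% over protein-coding genes. Each list count below is to be read beside these shares. Against either, the signalling lists as a class lay near the background, the housekeeping lists above it and the lineage lists below it.

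**Figure D1:**
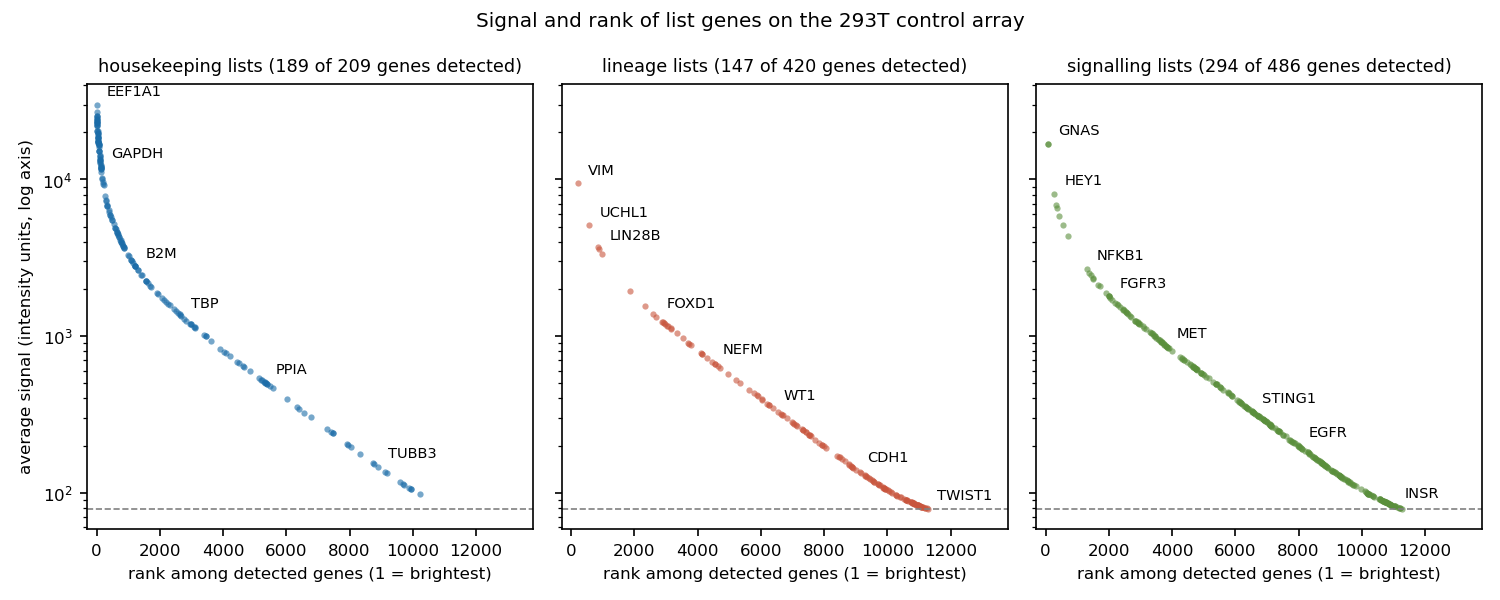
Average signal on the control array (vertical, intensity units, log axis) against rank among the 11293 detected genes (horizontal), for detected members of the housekeeping, lineage and signalling lists. Each point is 1 gene, and the dashed line marks the lowest signal of a detected gene, 78.8 units. Housekeeping genes crowd at the left, where 104 of 189 lie in the brightest 10%, while lineage genes crowd at the right.

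**Figure D2:**
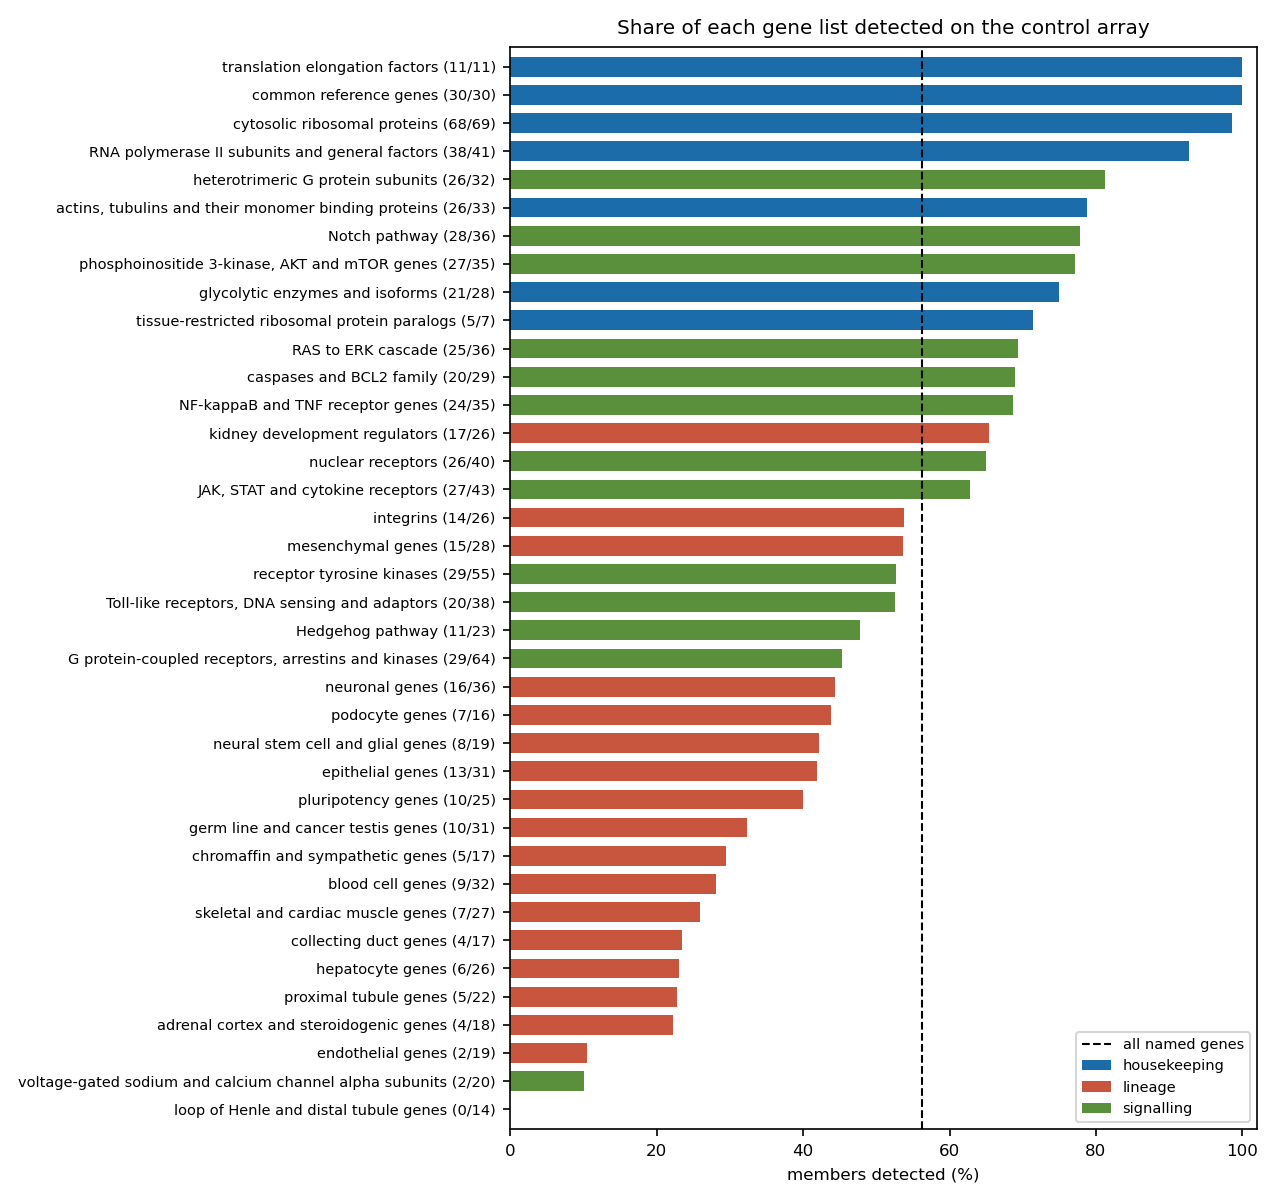
Share of the members of each list detected on the control array (horizontal, percent), with the numbers detected and measured in parentheses. Bars are coloured by class and the dashed line is the share over all named genes, 56.3%. Lists range from the elongation factors and common reference genes, with every member detected, to the loop of Henle genes with 0 of 14.

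Ribosomal protein genes formed the brightest list. Of 69 cytosolic ribosomal protein genes 68 were detected (98.6%), at a median rank of 100.5, and they held 5 of the 10, 21 of the 50 and 34 of the 100 brightest places. RPL10 was the member not detected, at 55.5 and 54.6 units on its 2 probes. Of 7 paralogs of ribosomal protein genes, read as a separate list, 5 were detected. RPL7L1 (5208.4 units, rank 544), RPL26L1 (4438.3 units), RPS27L (4014.0 units), RPL39L (1651.3 units) and RPL22L1 (527.6 units) were above background, whereas RPL3L, the muscle paralog of RPL3, had 65.8 units and RPL10L, a testis paralog, 62.0 units. The other RPS27L probe had 64.4 units, not above background.

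The translation elongation factors were detected in 11 of 11 cases. After EEF1A1 came EEF1B2 (13078.9 units, rank 112) and EEF1G (12316.0 units, rank 127), subunits of its exchange factor, and EEF2 (12946.0 units, rank 114), which drives translocation. EEF1A2, the isoform known from brain and muscle, was also detected, at 1891.1 units and rank 1904.

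The 30 common reference genes, those often used to normalise expression, were all detected, with a median rank of 795. They spread widely in signal. The beta actin gene ACTB had 17545.3, 16229.6 and 15743.7 units on 3 probes. The adaptor YWHAZ had 16839.8 units (rank 63) on its brighter probe and 190.7 units on the other. The glycolytic enzyme GAPDH had 12182.6 units (rank 129). HPRT1, a purine salvage enzyme, ranked 207 with 9414.3 units, and B2M, the light chain of class I antigen-presenting molecules, ranked 1226 with 2799.8 units. TBP, the TATA-binding protein, ranked 2663 (1344.8 units), and the lysosomal enzyme GUSB ranked 3081 (1146.7 units). PPIA, a prolyl isomerase, had 505.0 units at rank 5333, while PPIAL4A, whose sequence is close to that of PPIA, had 20080.7 and 3409.3 units. Which of these copies gave the signal is uncertain.

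Of 28 glycolytic genes 21 were detected. LDHA and LDHB, the subunits of lactate dehydrogenase, had 20509.4 units (rank 27) and 12004.2 units (rank 135), and the enolase ENO1 had 19847.0 units (rank 36). ALDOA (5924.2 units), PGK1 (5722.5 units), HK1 (5544.2 units), PGAM1 (5537.8 units) and PKM (4477.1 units) lay among the brightest 10%. Their other probes often gave less, with 819.9, 57.5 and 55.4 units for ALDOA, 76.1, 49.0 and 46.5 units for HK1, 812.1 units for PGAM1 and 1964.9 and 745.3 units for PKM. The phosphofructokinase genes PFKP (2256.3 units), PFKM (1191.9 units) and PFKL (495.1 units), the hexokinase HK2 (1255.2 units) and the glucose transporters SLC2A1 (830.6 units) and SLC2A3 (304.7 units) were detected. Isoforms of restricted use were found on both sides of the threshold. The testis lactate dehydrogenase LDHC had 399.2 and 234.2 units on 2 of its 3 probes, and the brain aldolase ALDOC had 324.7 units. The neuronal and muscle enolases ENO2 and ENO3 were detected at 177.2 and 154.0 units. The 7 genes not detected were the testis isoforms GAPDHS (63.4 units) and PGK2 (61.8 units), the muscle form PGAM2 (42.6 units), the liver and red cell form PKLR (58.1 units), HK3 (47.4 units) and the glucose transporters SLC2A2 of liver and islet (46.7 units) and SLC2A4 of muscle and fat (60.6 units).

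Of 33 actin, tubulin and monomer-binding genes 26 were detected. TUBA1A, TUBA1C (20268.2 units) and TUBA1B (17425.1 units) are nearly identical in coding sequence, as are ACTB and ACTG1, and signal from one copy at the probe of another cannot be told apart here. The profilin PFN1 had 16071.6 units and the tubulins TUBB and TUBB2B 11760.8 and 3677.3 units. The smooth muscle actin ACTA2 ranked 4634 (642.6 units), the neuronal tubulin TUBB3 8883 (146.7 units) and the skeletal muscle actin ACTA1 9926 (106.1 units), while the cardiac actin ACTC1 (58.3 units), the enteric smooth muscle actin ACTG2 (50.8 units) and the platelet tubulin TUBB1 (65.0 units) were not detected.

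RNA polymerase II subunits and general factors were detected in 38 of 41 cases (92.7%) but at a median rank of 3283, dimmer than the ribosomal protein list. POLR2F (7809.2 units), POLR2H (4849.8 units), POLR2A (4583.5 units), which encodes the catalytic subunit, and GTF2A2 (3874.3 units) led the list. Of the list's 4 germ-line variants of general factors, TAF1L was detected, at 195.2 units and rank 8043. The other 3, GTF2A1L (69.0 units), TAF7L (54.4 units) and TBPL2 (45.1 units), were the members not detected. TAF1 itself had 112.0, 69.9 and 56.3 units on its probes. Whether the TAF1L probe also bound TAF1 transcripts was not tested, so its signal is uncertain between them.

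Lineage markers were read next, beginning with the kidney. The nephron forms when mesenchyme that expresses SIX2 condenses around the ureteric bud, whose tip expresses RET, and then differentiates into podocytes and tubule segments with their own transporters. Regulators of kidney development were detected in 17 of 26 cases (65.4%), at a median rank of 6377. That share is near those of all named genes (56.3%) and of protein-coding genes (60.6%). FOXD1, a factor of the kidney stroma, was the brightest, with 1331.0 units at rank 2688, followed by IRX3 (1207.8 units), HOXD11 (1194.5 units) and MEIS2 (1163.9 units). The other MEIS2 probes had 93.5, 52.7 and 51.5 units. CITED1, a marker of the nephron progenitor cap, had 769.0 units. The progenitor factors EYA1, SIX2 and SALL1 were detected at 207.9, 201.9 and 163.5 units, and RET at 85.2 units, close to the threshold. PAX2 (61.4, 61.0 and 48.0 units on 3 probes), PAX8 (63.0, 57.5 and 53.6 units) and LHX1 (70.2 units), which act early in the nephron lineage, were not detected.

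Genes of the mature nephron were mostly not above background. Of 16 podocyte genes 7 were detected (43.8%). WT1, a zinc finger factor of the podocyte and its progenitors, had 346.3 and 180.4 units on its probes, and the surface sialomucin PODXL had 899.1, 119.5 and 56.9 units. TJP1 (966.5 units) and ACTN4 (504.2 units), which many epithelia share, were also detected, whereas nephrin, NPHS1, had 51.0 units and was not.

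Of 22 proximal tubule genes 5 were detected, namely ALPL (297.9 units), CYP27B1 (202.3 units), SLC4A4 (129.0 units), the endocytic receptor LRP2 (108.1 units) and SLC13A3 (82.1 units). The phosphate carrier SLC34A1 (49.4 units), the glucose carrier SLC5A2 (46.3 units), the anion carrier SLC22A6 (59.0 units), the receptor CUBN (51.6 units) and the water channel AQP1 (74.0 units) were not. Of 14 loop of Henle and distal tubule genes 0 were detected. The salt carriers SLC12A1 and SLC12A3 had 46.7 and 52.6 units, the calcium buffer CALB1 had 49.2 units, and the brightest member, PVALB, had 77.8 units. Of 17 collecting duct genes 4 were detected, at 119.1 units or less. They were the proton pump subunit ATP6V1B1 (119.1 units), the vasopressin receptor AVPR2 (101.1 units), the factor GATA3 (90.4 units) and HSD11B2 (83.1 units), while the water channels AQP2 (61.0 units) and AQP3 (62.2 units) and the intercalated cell factor FOXI1 (66.8 units) were not detected.

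The adrenal gland lies beside the kidney, and its 2 parts were read apart. Of 18 adrenal cortex and steroidogenic genes 4 were detected, led by the lipoprotein receptor SCARB1 (1221.7 units) and the widely used electron donors POR (268.9 units) and FDX1 (233.4 units), with the sulfotransferase SULT2A1 near the threshold (83.3 units). The 6 defining genes were not detected, which were the steroidogenic factor NR5A1 (53.9 units), the cholesterol carrier STAR (53.2 units), the corticotropin receptor MC2R (59.1 units) and the enzymes CYP11A1 (68.9 units), CYP17A1 (40.5 units) and HSD3B2 (56.1 units). Of 17 chromaffin and sympathetic genes 5 were detected. The factors ISL1 (1040.5 units, rank 3358) and GATA2 (312.2 units) were well above the threshold, and CYB561 (90.3 units) and the vesicle transporter SLC18A1 (83.6 units) lay near it. The catecholamine enzymes TH (58.1 units), DBH (45.9 units) and PNMT (56.4 units) and the granins CHGA (64.7 units) and CHGB (61.5 units) were not above background.

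Neuronal genes were detected in 16 of 36 cases (44.4%, against 56.3% of all named genes), at a median rank of 8539. The podocyte, epithelial, pluripotency and neural stem cell and glial lists had lower shares, so a low share was not particular to neuronal genes. The medium and light neurofilaments NEFM and NEFL had 684.1 and 363.6 units, the related INA had 629.6 units and the heavy neurofilament NEFH had 85.8 units, a call that was not repeated on all 3 arrays. UCHL1, a ubiquitin hydrolase abundant in neurons, ranked 565 with 5113.1 units, and STMN3, a microtubule regulator, had 1118.7 units. The axonal protein MAPT (158.4 units), TUBB3 and the vesicle protein SYP (107.6 units) were dim. The neuronal RNA-binding proteins ELAVL3 (71.9 units), ELAVL4 (48.3 units) and RBFOX3 (54.0 units), the cytoskeletal proteins DCX (74.9 units), MAP2 (69.4 units) and STMN2 (62.2 units) and the release protein SNAP25 (75.2 units) were not detected.

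Of 19 neural stem cell and glial genes 8 were detected. VIM, the intermediate filament of mesenchymal and progenitor cells, was the brightest lineage gene of any list, at 9459.8 and 5505.3 units and rank 206. The glutamate carrier SLC1A3 had 769.7 units. The progenitor factors OLIG2 (415.8 units), PAX6 (370.2 units) and SOX2 (242.7 units, its other probe at 71.2) and the RNA-binding protein MSI1 (229.5 units) were detected, and NES, another progenitor filament, had 86.9 units. The differentiation markers GFAP of astrocytes (55.0 units), S100B (57.7 units), MBP of myelin (57.6 units) and SOX10 (51.7 units) were not.

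Epithelial and mesenchymal genes were both incomplete. Of 31 epithelial genes 13 were detected (41.9%), led by KRT10 (1928.6 units), TJP1, the desmosomal protein DSP (874.9 units) and the tight junction protein CGN (659.0 units). E-cadherin, CDH1, had 139.9 units at rank 9018, and the simple epithelial keratins KRT8 and KRT18 had 94.2 and 93.5 units. The KRT18 call was not repeated on all 3 arrays. EPCAM (67.0 units), KRT19 (62.6 units), the basal keratins KRT5 (42.6 units) and KRT14 (54.0 units), CLDN4 (55.1 units) and the epithelial regulators ESRP1 (56.4 units) and GRHL2 (59.0 units) were not detected.

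Of 28 mesenchymal genes 15 were detected (53.6%). After VIM came SNAI2, a repressor of epithelial genes, with 1385.1 and 646.8 units, and N-cadherin, CDH2, with 1158.4 units at rank 3054. ACTA2 and ZEB2 (394.7 units) followed, and ZEB1 (111.6 units), the collagen COL1A1 (106.6 units) and TWIST1 (79.4 units) lay near the threshold. The matrix genes FN1 (65.7, 61.8 and 55.6 units on 3 probes), COL1A2 (59.5 units) and SPARC (67.2 units), the factor PRRX1 (67.1 units) and the fibroblast protease FAP (61.2 units) were not detected.

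**Figure D3:**
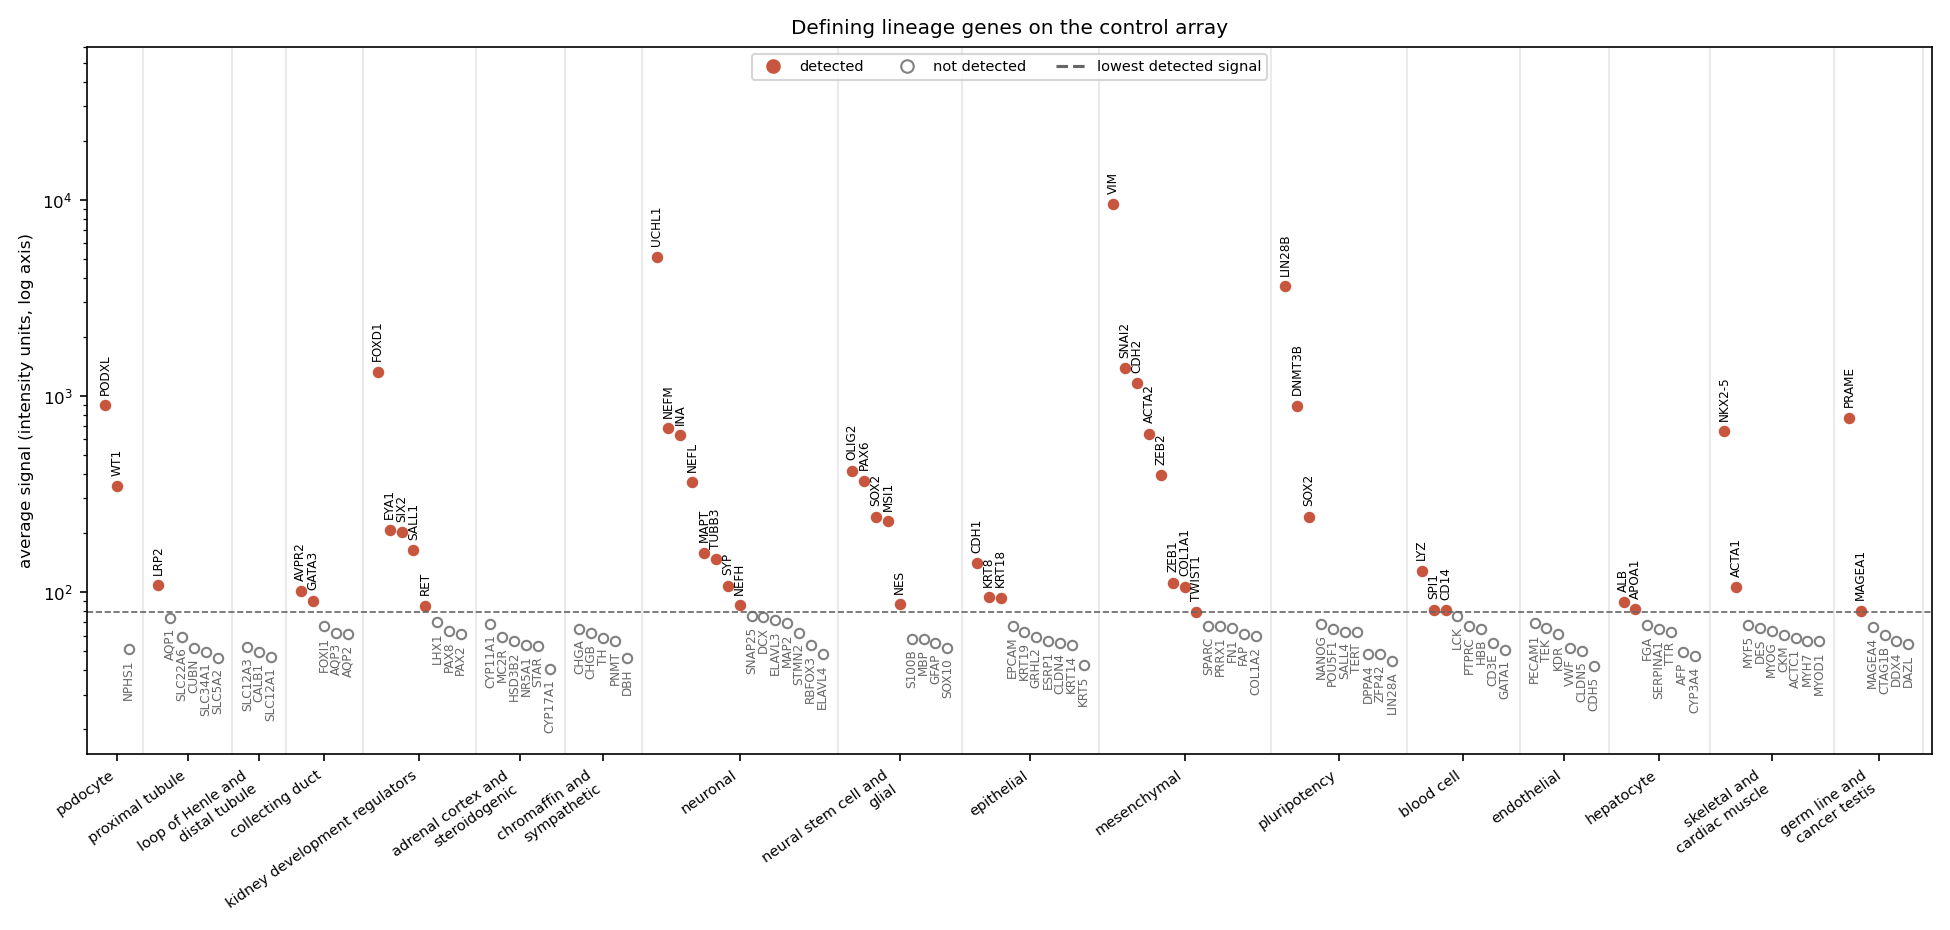
Average signal on the control array (vertical, intensity units, log axis) of the defining genes of 17 lineage lists (horizontal), each ordered from bright to dim. Filled points were detected, open points were not, and the dashed line is the lowest signal of a detected gene, 78.8 units. VIM, UCHL1 and LIN28B stand highest, while no defining gene of the loop of Henle, adrenal cortex, chromaffin and endothelial lists is filled.

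Pluripotency genes were detected in 10 of 25 cases. LIN28B, which blocks maturation of let-7 microRNAs, had 3621.2 units at rank 885, the growth factor-responsive gene MYC had 3336.3 and 3034.4 units and the DNA methyltransferase DNMT3B had 889.2 units. SOX2 was the only core pluripotency factor above background, since POU5F1 (65.2 and 46.9 units) and NANOG (68.6 and 55.5 units) were not detected. LIN28A (44.7 units), SALL4 (62.9 units), DPPA4 (48.4 units), ZFP42 (48.3 units) and TERT (62.4 units), the catalytic subunit of telomerase, were not detected either.

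Lists of distant tissues served as a measure of how often single lineage genes pass the threshold. Of 32 blood cell genes 9 were detected, the brightest being CD68 (250.3 units), LYZ (128.6 units, its other probe at 58.9), CD79B (123.2 units) and CD8A (113.0 units). The myeloid genes SPI1 (81.3 units) and CD14 (80.8 units) lay at the threshold, and PTPRC, the common leukocyte antigen (67.2 units), CD3E (55.2 units), LCK (75.9 units), HBB (65.2 units) and GATA1 (50.8 units) were not detected. Of 19 endothelial genes 2 were detected, SOX18 (266.0 units) and ESAM (82.0 units). The endothelial genes PECAM1 (69.6 units), CDH5 (42.0 units), VWF (51.8 units), KDR (61.1 units) and TEK (65.3 units) were not, nor was CLDN5.

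Of 26 hepatocyte genes 6 were detected, led by the pioneer factor FOXA1 (723.4 units), the urea cycle enzyme CPS1 (527.0 units), CYP2E1 (168.6 units) and ASGR1 (168.2 units). Albumin, ALB, had 88.9 units on 1 probe and 65.0 on the other, and APOA1 had 81.9 units, while FGA (67.6 units), SERPINA1 (64.5 units), TTR (62.9 units), AFP (49.4 units) and CYP3A4 (47.0 units) were not detected. Of 27 muscle genes 7 were detected. The cardiac factor NKX2-5 stood out with 661.2 units, the next being TNNI3 (126.9 units), TNNT1 (119.7 units) and MYH3 (111.3 units). The myogenic factors MYOD1 (56.2 units), MYF5 (68.2 units) and MYOG (63.6 units), the filament DES (65.5 units), the enzyme CKM (60.4 units) and the myosin MYH7 (56.2 units) were not detected.

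Of 31 germ line and cancer testis genes 10 were detected, and 8 of these belonged to the MAGE families. PRAME, a repressor of retinoic acid signalling, had 775.5 and 281.9 units on 2 of 3 probes, and MAGEC2 had 432.6 units. MAGEA6 (278.8 units) and MAGEA3 (254.8 units) are nearly identical in sequence, so that their signals are uncertain between the copies. MAGEA1 lay at the threshold (80.2 units), and MAGEA4 (66.6 units), CTAG1B (60.4 units) and the germ cell genes DDX4 (56.0 units) and DAZL (54.1 units) were not detected.

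Integrins link cells to the matrix, and 14 of 26 were detected. ITGB1, the common beta subunit, had 3725.4 units at rank 856. ITGB5 (1567.1 units), ITGAE (1234.1 units) and ITGAV (1115.8 units) followed, the last of these being the alpha partner of ITGB5. The fibronectin receptor subunit ITGA5 had 275.7 units and the laminin receptor subunits ITGA3 and ITGA6 had 96.8 and 96.5 units, while ITGB3 (59.8 units) and the leukocyte subunit ITGAL (49.7 units) were not detected. The leukocyte subunit ITGB2 was detected at 146.4 units.

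Signalling genes were read from the receptors inward. Of 55 receptor tyrosine kinases 29 were detected (52.7%), against 56.3% of all named genes and 60.6% of protein-coding genes. RYK, a WNT co-receptor, was the brightest (2081.2 units, rank 1709). FGFR3 had 1795.8 units on 1 probe and 78.5 units, not above background, on the other, and MET, the hepatocyte growth factor receptor, had 859.6 units. EPHB4 (618.4 units), TYRO3 (608.5 units), KIT (416.1 units), DDR1 (358.1 units), FGFR4 (312.6 units), PTK7 (282.0 units) and EPHA2 (115.4 units) were also detected. ERBB2 had 702.5 units on 1 of 3 probes, the others at 59.5 and 54.9. EGFR had 199.5 and 84.9 units on 2 of its 4 probes and 62.1 and 54.9 units on the rest. The receptors of insulin and its growth factor relative, INSR (82.0 units) and IGF1R (86.7 units), lay close to the threshold, as did ERBB3 (90.7 units) and PDGFRA (84.0 units). FGFR1 (60.0 and 42.5 units), FGFR2 (65.6 units), ERBB4 (47.2 units), AXL (68.9 units) and PDGFRB (52.5 units) were not detected.

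In the cascade of RAS to ERK, which these receptors use, 25 of 36 genes were detected (69.4%, against 56.3% of all named genes), among them the phosphatase PTPN11 (2363.1 units), the kinases MAP2K1 (2124.2 units), MAPK3 (1590.2 units), ARAF (886.6 units) and MAP2K2 (861.1 units) and the GTPases RRAS2 (1253.9 units) and HRAS (842.0 units). The other HRAS probe had 68.4 units, not above background. DUSP6, a phosphatase induced by ERK, had 75.6 units and was not detected. Of 35 genes of phosphoinositide 3-kinase, AKT and mTOR 27 were detected (77.1%). RHEB, the GTPase that activates mTOR, ranked 439 (5852.1 units), and RPS6KB2 (2517.1 units), AKT1 (2329.7 and 1800.0 units, a further probe at 73.4) and MTOR (1883.3 units) followed. IRS4, an insulin receptor substrate first isolated from HEK293 cells, had 213.2 units at rank 7766. The catalytic subunits PIK3CB (322.2 units) and PIK3CD (118.1 units) were detected, while AKT2 (61.1 units) and the leukocyte isoform PIK3CG (71.3 units) were not detected.

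Notch receptors are cleaved on contact with a ligand of a neighbouring cell and then act in the nucleus on the HES and HEY repressor genes. Of 36 Notch pathway genes 28 were detected (77.8%), at a median rank of 6447.5. HEY1 had 8096.5 and 1137.9 units and ranked 260, and HES4 had 5142.7 units and ranked 562, which made these repressor genes the brightest of the list. The inhibitor NUMB had 1471.5 units, and the repressor genes HEY2 and HES1 had 1429.8 and 308.8 units. Among ligands, DLL3 (975.8 units), DLL1 (437.8 units), JAG2 (318.3 units) and JAG1 (98.7 units) were detected and DLL4 (60.3 units) was not. Among receptors, NOTCH3 (496.7 units), NOTCH1 (294.2 units) and NOTCH2 (272.3 units) were detected and NOTCH4 (60.0 units) was not.

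The Hedgehog pathway was detected in 11 of 23 cases (47.8%). The signal transducer SMO had 625.3 units, the co-receptor GAS1 1636.4 units, the ubiquitin ligase adaptor SPOP 1540.5 units, the kinase STK36 1498.6 units and the ciliary kinesin KIF7 701.0 units. The factors GLI2 and GLI3 were detected at 148.2 and 111.7 units. The ligands SHH (56.9 units), IHH (61.6 units) and DHH (56.7 units) were not detected, nor were the pathway's target genes PTCH1 (74.2 units) and GLI1 (65.1 units).

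In cytokine signalling 27 of 43 genes of the JAK and STAT pathway were detected (62.8%). The kinases TYK2 (1812.9 units) and JAK1 (1210.5 units) were brighter than JAK2 (154.9 units), and JAK3, the partner of the lymphocyte receptor chain IL2RG, was not detected (60.0 units), nor was IL2RG (60.3 units). The interferon receptor chains IFNGR2 (2440.2 units), IFNGR1 (1337.9 units), IFNAR2 (886.1 units) and IFNAR1 (492.7 units) were detected, as was the interleukin-13 receptor chain IL13RA1 (1390.4 units). IL6ST, the signal chain of the interleukin-6 family, had 1039.4 units on its brightest probe and 76.3 and 67.9 units, not above background, on the others. IL6R, its ligand-binding partner, had 57.5 and 56.9 units and was not detected. STAT3 (550.1 units), STAT6 (235.1 units), STAT5B (200.2 units) and STAT4 (155.5 units) were detected and STAT5A (70.6 units) was not.

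Of 38 genes of Toll-like receptors, DNA sensing and their adaptors 20 were detected (52.6%). The 10 Toll-like receptor genes were not, among them TLR3 (76.9 units), TLR5 (67.2 units), TLR4 (61.1 units), TLR7 (56.3 units), TLR9 (49.3 units) and TLR2 (48.0 units). The adaptor MYD88 (58.5 units), the TLR4 partner LY96 (57.1 units) and the DNA sensor CGAS (39.5 units) were not above background either. STING1, which acts downstream of CGAS, was detected at 329.3 units. So were the kinases IRAK1 (6529.5 units, rank 361), MAP3K7 (1707.9 units) and TBK1 (1200.6 units), the adaptors TAB1 (584.5 units), TRAF6 (273.1 units) and TICAM1 (211.8 units), and the factor IRF3 (473.4 units).

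Of 35 NF-kappaB and TNF receptor genes 24 were detected (68.6%), led by NFKB1 (2692.4 units), the death receptor TNFRSF10B (1760.1 units), TNFRSF21 (1190.7 units) and the death adaptor FADD (1115.1 units). The kinase subunits CHUK (1052.8 units), IKBKG (850.4 units) and IKBKB (626.1 units) and the receptor TNFRSF1A (560.2 units) were detected. RELA had 139.5 units, and REL (91.7 units), CD40 (88.4 units) and FAS (81.8 units) lay near the threshold, while TNFRSF1B (45.7 units) and the necroptosis kinase RIPK3 (55.1 units) were not detected.

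Of 29 caspases and BCL2 family genes 20 were detected (69.0%). CASP2 was the brightest, at 4330.1, 898.9 and 93.2 units. On their brightest probes the survival genes MCL1 (1129.4 and 314.3 units), BCL2L2 (720.7 units) and BCL2L1 (634.9 units) had larger signals than BCL2 (175.9 units). The other BCL2L1 probe had 68.4 units, not above background, and the other BCL2 probes had 121.1, 56.2 and 54.0 units. The effectors of pore formation BAX (285.6 units) and BAK1 (181.0 units), the initiator CASP9 (372.1 units) and the p53 target PMAIP1 (1153.5 units) were detected. CASP8 (77.3 units), CASP1 (55.9 units) and BCL2A1 (55.7 units) were not.

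Of 40 nuclear receptor genes 26 were detected (65.0%). PPARG, a regulator of fat cell genes, was the brightest, at 1221.6 and 334.5 units on 2 of 4 probes, followed by NR2F6 (954.0 units), RXRB (918.1 units) and RXRA (803.3 units), the last of which pairs with many receptors. NR2F1 (572.0 units), RARA (454.7 units), ESRRA (340.2 units), NR3C2 (247.9 units) and the glucocorticoid receptor NR3C1 (158.4 units) were detected. THRA (118.6 units), VDR (99.5 units) and ESR2 (87.0 units) were nearer the threshold, and the oestrogen receptor ESR1 (62.4 units) and the progesterone receptor PGR (56.3 units) were not detected.

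G protein-coupled receptors and the proteins they act through differed in coverage. Of 32 heterotrimeric G protein subunit genes 26 were detected (81.2%), whereas 29 of 64 receptor, arrestin and kinase genes were (45.3%). GNAS, the stimulatory alpha subunit, had 16939.9 units at rank 61 on 1 probe and 65.3 and 46.9 units on the others, GNB1 had 6912.5 units, GNG5 1789.4 units and GNA13 1605.8 units. GNAI2 (616.3 units), GNAQ (379.7 units), GNA12 (342.9 units), GNA11 (310.8 units), GNAL (145.9 units) and GNAT1 (90.3 units) were also detected, while GNAO1 of neurons (62.7 units) and GNA14 (67.7 units) and GNA15 (65.5 units) were not. F2R, the thrombin receptor, was the brightest receptor, with 16854.6 units at rank 62 on 1 probe and 358.7 units on the other. The adenosine receptor ADORA2B (1027.7 units), the adhesion receptor ADGRL2 (1254.9 units), the kinases GRK2 (1324.4 units) and GRK6 (289.8 units), the arrestin ARRB1 (248.0 units) and the purinergic receptor P2RY11 (210.0 units) followed. The other GRK2 probe had 51.7 units, not above background. The angiotensin receptor AGTR1 (94.5 units), the muscarinic receptor CHRM3 (88.7 units) and CXCR4 (83.7 units) lay near the threshold. ADRB1 (68.1 units), CHRM1 (48.5 units), DRD2 (69.1 units), HTR2A (59.2 units) and OPRM1 (67.1 units) were not detected.

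Voltage-gated sodium and calcium channels, whose low native level is a reason the line is used to express cloned channels, were detected in 2 of 20 cases (10.0%). CACNA1H, a T-type calcium channel, had 269.0 units, and the sodium channel SCN9A had 79.7 units, at the threshold. The SCN9A call was not repeated on all 3 arrays. SCN3A (76.6 units), CACNA1C (73.4 units) and CACNA1A (64.1 units) were not detected.

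**Figure D4:**
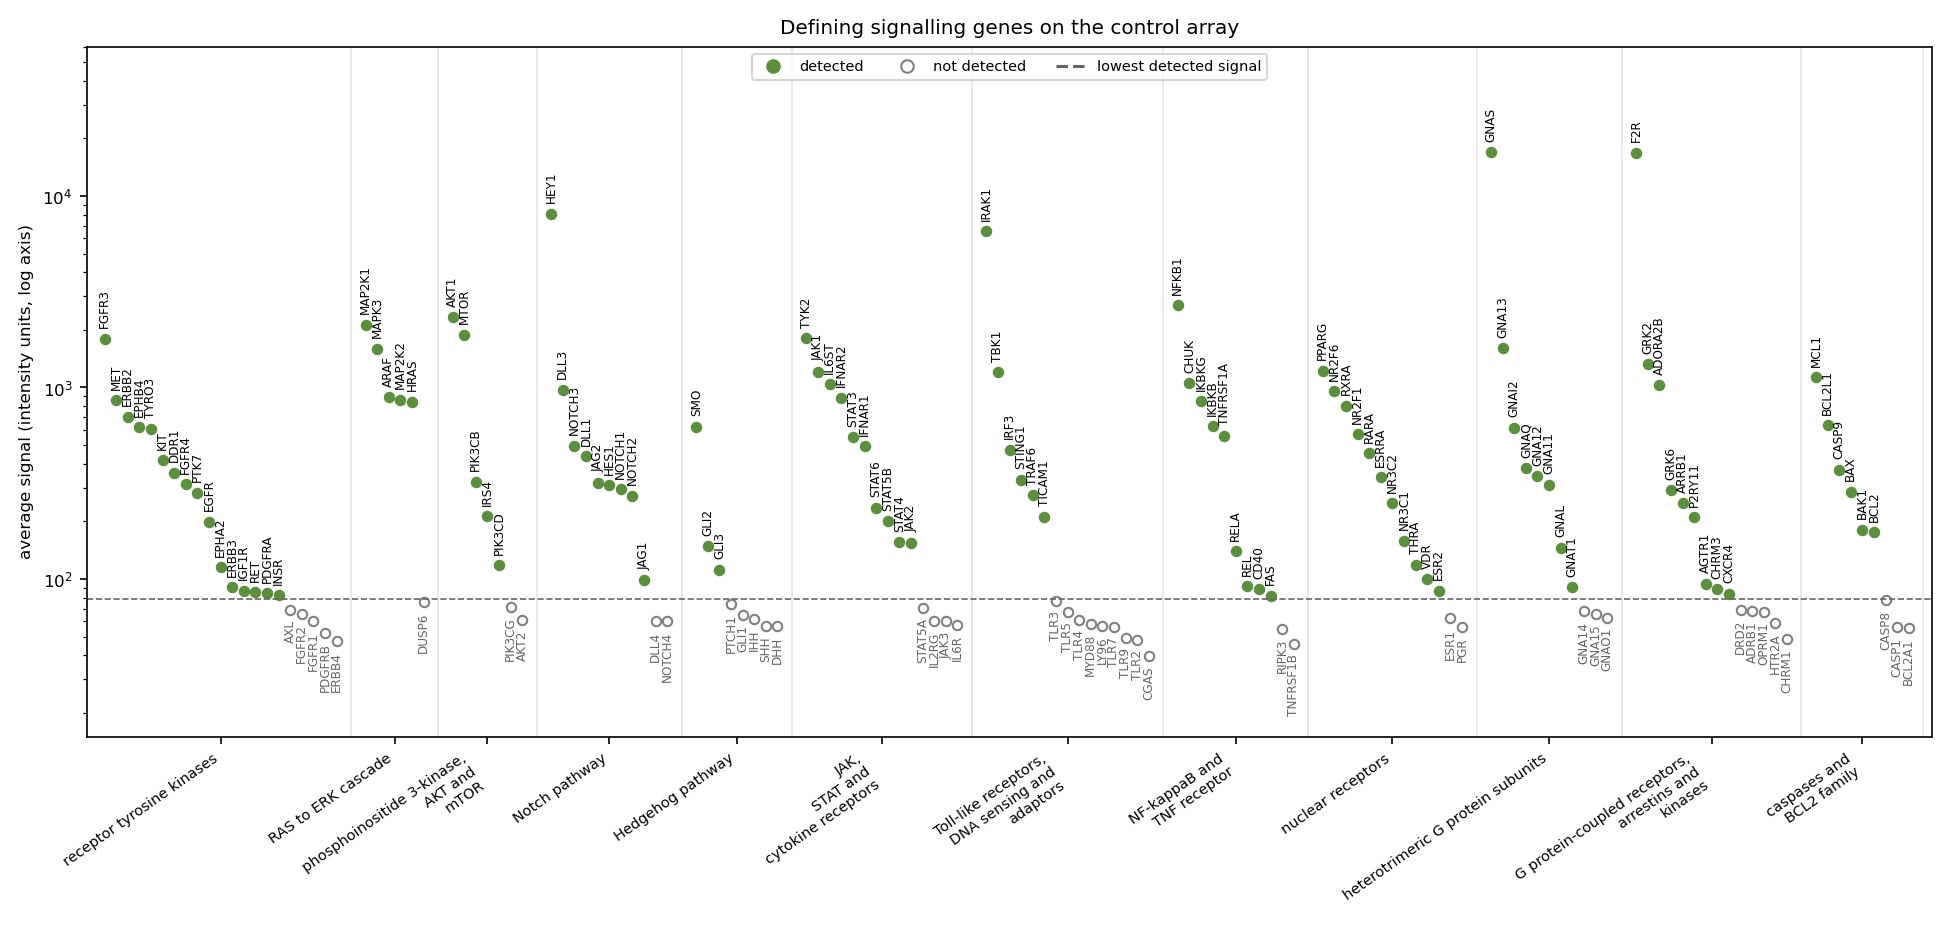
Average signal on the control array (vertical, intensity units, log axis) of the defining genes of 12 signalling lists (horizontal), each ordered from bright to dim. Filled points were detected, open points were not, and the dashed line is the lowest signal of a detected gene, 78.8 units. GNAS, F2R, HEY1 and IRAK1 stand highest, and the open points of the Toll-like receptor list are receptors, MYD88, LY96 and CGAS.

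Gene families named by their symbols were counted as well, after values had been seen. At one end, 12 of 12 spliceosomal snRNP protein genes were detected, as were 79 of 80 mitochondrial ribosomal protein genes, 42 of 45 complex I genes of respiration and 42 of 48 proteasome genes, whose PSMA4 had 11894.5 units. Of the ZNF zinc finger genes 362 of 493 were detected (73.4%), at a median rank of 7865. Solute carriers lay at the background of all named genes, with 213 of 383 detected (55.6%), led by SLC25A5. Collagens were detected in 18 of 45 cases, led by COL4A5 of the basement membrane (968.5 units), and cytochrome P450 genes in 17 of 58, led by the sterol enzyme CYP51A1 (1233.4 units).

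At the other end lay receptors and structural genes of specialised tissues. Of 384 olfactory receptor genes 9 were detected (2.34%), the brightest, OR7E156P, having 101.1 units, and 3 of the 9 were detected on both other arrays. Bitter taste receptors were detected in 0 of 25 cases, interferon alpha genes in 0 of 13, keratin-associated proteins in 2 of 81, beta-defensins in 1 of 37, keratins in 4 of 49 and chemokine ligands in 4 of 40. Of 44 interleukins 6 were detected, and IL18 was the brightest by far, at 3768.4 units and rank 843. By the type of gene in the RefSeq table, 10777 of 17776 protein-coding genes were detected (60.6%), against 101 of 279 snoRNA genes (36.2%), 159 of 798 lncRNA genes (19.9%) and 19 of 561 miRNA genes (3.39%). How well the assay captures short RNAs was not tested, so these shares describe probe detection and not which such genes are expressed.

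Several bright genes outside the lists, picked after their values were seen, were lineage-restricted or metabolic. PHGDH, the entry enzyme of serine synthesis, had 18480.0 units (rank 44), and ATF4, a stress factor that acts on amino acid synthesis genes, 14617.4 units (rank 92). The other ATF4 probes had 1901.8 and 89.2 units, so its rank is uncertain. The BEX genes BEX3 (9363.6 units), BEX1 (4618.5 units), BEX2 (3297.8 units) and BEX4 (3283.0 units) were detected. Probes of these genes disagreed, since BEX4 had 61.7 units, not above background, on its other probe, BEX1 had 524.2 units on its other probe, and the dimmest probe of BEX3 had 283.5 units. The brain creatine kinase CKB had 7465.4 units, the carbonic anhydrase CA2 6855.1 units, the desmosomal cadherin DSG2 6565.9 units, the neural factor ZIC2 4464.5 units and the retinoic acid-producing enzyme ALDH1A2 3079.7 units. On the other probe DSG2 had 520.5 units, CA2 3758.5 units and ALDH1A2 1071.9 units.

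Promoter sequence was set beside the detection calls, because broadly used genes are known to start often within CpG islands and restricted genes often at a TATA box. The promoters of the brightest gene, of the brightest ribosomal protein gene and of defining liver and muscle genes that were not detected are shown as examples. The lines give the 120 bases before the start in GRCh38.p14 of RefSeq, 5′ to 3′ on the strand of the gene, with CG dinucleotides and the letters TATAA in capitals. RefSeq lists 2 starts for RPL6.
EEF1A1, chr6:73521033-73521152, minus strand: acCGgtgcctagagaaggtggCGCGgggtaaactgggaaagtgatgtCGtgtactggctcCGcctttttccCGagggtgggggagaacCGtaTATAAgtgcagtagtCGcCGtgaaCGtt
RPL6, chr12:112409286-112409405, minus strand: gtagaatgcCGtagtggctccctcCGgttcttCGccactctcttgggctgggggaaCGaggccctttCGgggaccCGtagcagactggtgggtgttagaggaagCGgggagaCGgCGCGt
RPL6, chr12:112411443-112411562, minus strand: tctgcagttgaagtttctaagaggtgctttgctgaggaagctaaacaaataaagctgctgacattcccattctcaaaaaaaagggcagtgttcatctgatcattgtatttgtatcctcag
AFP, chr4:73436101-73436220, plus strand: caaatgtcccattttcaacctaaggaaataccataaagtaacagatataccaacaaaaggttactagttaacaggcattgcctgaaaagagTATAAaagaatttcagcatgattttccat
MYOG, chr1:203086013-203086132, minus strand: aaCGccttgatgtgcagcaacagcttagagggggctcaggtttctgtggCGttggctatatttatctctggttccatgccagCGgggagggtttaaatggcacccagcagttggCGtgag

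The EEF1A1 stretch held 10 CG dinucleotides and also TATAA, beginning 28 bases before the start. The 2 stretches of RPL6 differed, with 10 CG dinucleotides in the one nearer the coding sequence and 0 in the one farther upstream, and the data do not show which start was used. AFP held 0 CG dinucleotides and TATAA beginning 29 bases before the start. MYOG held 4 CG dinucleotides and no TATAA in the window searched.

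The same features were counted over the 10616 protein-coding genes with exactly 1 promoter entry, 6374 of them detected and 4242 not. An entry spans 250 bases before to 50 bases after the start. The median promoter held 27.0 CG dinucleotides in detected genes and 8.0 in genes not detected, and its G and C content was 66.0% in detected genes and 56.7% in the others. At least 10 CG dinucleotides were present in 93.8% of promoters of detected genes, in 45.5% of promoters of genes not detected and in 56.4% of all 35116 entries.

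TATAA was searched on the strand of the gene, lying wholly within 45 to 16 bases before the start. It was found in 3.15% of promoters of detected genes and in 12.4% of promoters of genes not detected. Over all entries, a wider set than these genes, the share was 4.09%. An equal window 195 to 166 bases before the start held it in 1.55% of all entries. Among the lists, irrespective of detection, the shares varied widely within the lineage and housekeeping classes and were mostly low in the signalling class. In signalling lists TATAA was found in 4 of 25 Notch pathway promoters and in at most 1 promoter of any other list. TATAA was present in 9 of 13 muscle, 4 of 7 collecting duct and 4 of 14 hepatocyte promoters, but in 0 of 15 blood cell, 0 of 13 germ line and 0 of 7 podocyte promoters. In housekeeping lists it was present in 5 of 51 cytosolic ribosomal protein, 2 of 26 RNA polymerase II, 5 of 27 common reference, 5 of 21 actin and tubulin and 2 of 7 elongation factor promoters.

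By signal, from the brightest to the dimmest quintile of detected genes, the share with at least 10 CG dinucleotides was 97.5%, 97.7%, 95.7%, 94.0% and 82.0%. The dimmest quintile thus lay between the other detected genes and the genes not detected. The share with TATAA was 3.45%, 2.01%, 2.47%, 2.18% and 5.97% in the same order, lower in the middle quintiles than at both ends.

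**Figure D5:**
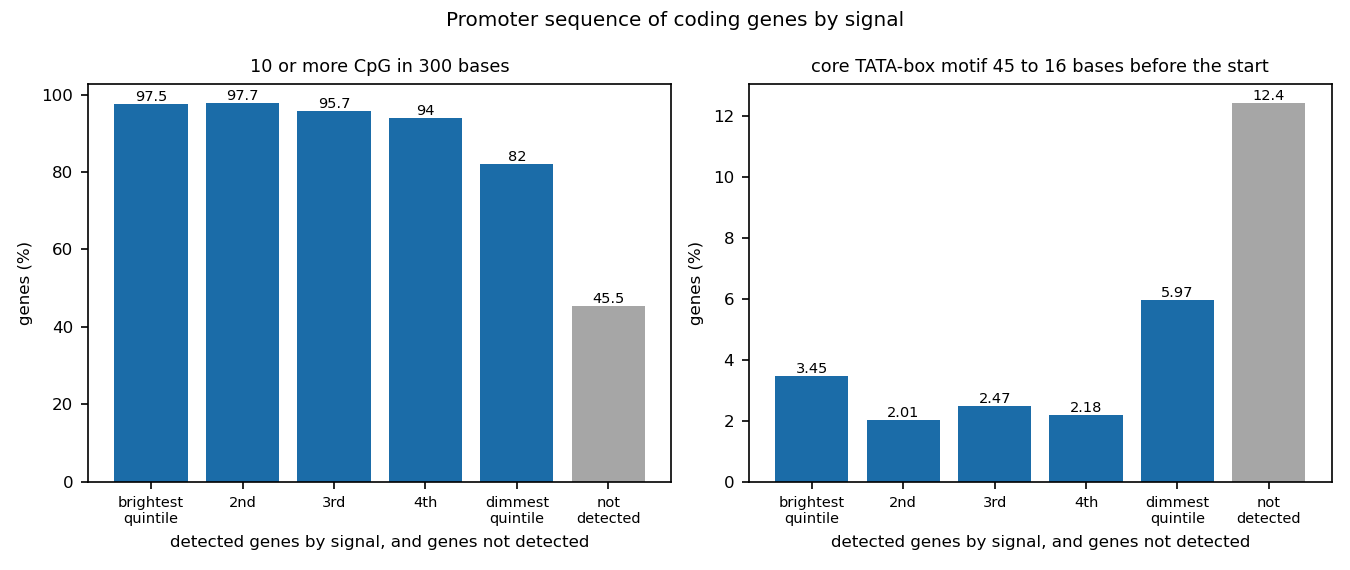
Share of protein-coding genes (vertical, percent) with 10 or more CpG in the promoter entry of 300 bases (left) and with TATAA within 45 to 16 bases before the start (right). Bars are the 5 quintiles of detected genes by signal and, in grey, the 4242 genes not detected. The CpG share is 82.0% in the dimmest quintile and 45.5% in genes not detected, and the TATAA share is 5.97% in the dimmest quintile and 12.4% in genes not detected.

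Letters of known factor motifs were counted on both strands over the whole entry. GGGCGG, the core of the SP1 site, was in 73.7% of promoters of detected genes, 40.1% of those not detected and 15786 of all 35116 entries, the wider set. CCGGAAG, an ETS family core, was in 22.2%, 5.7% and 10.3% of the same sets, and its share by quintile of signal was 26.5%, 25.7%, 21.4% and 19.6% from the brightest on, with 180 of 1123 promoters in the dimmest. TGACGTCA, the CREB site, was in 3.89%, 1.65% and 1.85%. CCAAT, bound by NF-Y, was in 38.3%, 36.3% and 34.6%. Each of these motifs except CCAAT holds a CG, and the counts were not corrected for the difference in CG content given above. A match in these windows is a description of letters and does not show that a factor bound there.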

How the data were processed

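The authors deposited a non-normalized table with an average signal, a bead intensity, and a detection p-value per probe for each of the 3 arrays, per the file headers. The submitters' processing notes name lumi, with no version or role, and how the detection p-value was computed is not given in the sources used here. Its column follows each signal column, and signal and detection p were related across probes by a Spearman rho of -0.984 on the control array. The series' value table, a processed version of the same arrays, served as an alternative.

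Of 47323 probes, 30113 had 1 symbol in the platform annotation, 8 had several and 17202 were not listed. Names were checked against RefSeq gene IDs (30074 matched). Genes were called detected where the brightest probe had a detection p under 0.01, with no adjustment over probes, and ranked by deposited intensity. No background correction or scaling was applied, since 1 array was described. Python 3.11.15 (pandas 2.3.3, scipy 1.17.1) was used, with R 4.3.3 and limma 3.58.1 for the neqc alternative (offset 16). The scripts were tested on simulated data. Array depth has no read count, and the number of arrays, 1 per control, limits precision.

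The text names the 25 brightest genes, the defining genes of each list and its 4 brightest members, members that complete a count, and 3 genes on each side of the threshold. List members without a named probe were not analysed here. The members and lists were chosen with earlier results of these data known. Alternatives were other thresholds, every probe detected, detection on all 3 arrays, mean signal of probes, neqc, and, chosen after seeing the data, the first promoter entry of every gene.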

Additional observations from a re-analysis of the deposited data

Results flagged for a closer look

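Outside the named genes, 3825 of the 17202 probes that the annotation does not list were detected on the control array (22.2%). They were set aside because no comparison of the report uses them. The brightest had 28348.8 units, and 1328 of them were brighter than the median detected gene, 452.2 units. These probes are unnamed here, so transcripts they measure are missing from the counts and ranks above.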

How the results depend on the processing

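Detected genes numbered 12204 at a detection p under 0.05, 9513 under 0.001, 11583 at an adjusted detection p under 0.05, 9104 where every probe of a gene had to be detected and 10799 on all 3 arrays, against 11293. Counts of list members moved beyond 1.5 times as follows. Under 0.001 the lineage lists had 89 members detected, with 3 proximal tubule, 0 collecting duct, 2 chromaffin, 8 epithelial, 8 mesenchymal, 3 blood, 1 endothelial, 2 muscle, 7 integrin and 1 channel gene. Under 0.05, 8 proximal tubule, 3 loop of Henle and 6 channel genes were detected, and with the adjusted p 1 loop of Henle gene. With every probe detected there were 3 proximal tubule, 2 chromaffin, 7 epithelial, 2 blood, 4 germ line, 15 receptor tyrosine kinase, 13 nuclear receptor and 1 channel gene. On all 3 arrays there were 2 chromaffin genes and 1 channel gene. Among 352 genes named by the rule, the call of 39 changed under 0.001, of 11 under 0.05, of 4 with the adjusted p, of 12 on all 3 arrays and of 59 with every probe detected. The 12 not repeated on all 3 arrays were ALB, APOA1, CXCR4, FAS, GNAT1, INSR, KRT18, NEFH, PDGFRA, SCN9A, SPI1 and TWIST1. The share of detected genes with TATAA was 3.65% under 0.05, and with at least 10 CG dinucleotides 91.7% under 0.05, 94.9% with every probe detected and 90.4% with the first promoter entry. For genes not detected TATAA stood at 10.7% with every probe detected and 10.7% with the first entry, and at least 10 CG dinucleotides at 43.4%, 53.4% and 47.2% under the same 3 settings. List medians of rank did not move with neqc or the series' value table. For neqc this outcome was fixed in advance, since it keeps the order of probes within 1 array, so it is no check of the ranks. The value table holds the same arrays and adds no separate measurement. The medians moved by up to 11.5 percentile points, at the median 3.5, with the mean signal of all probes, which moved 199 of 208 ranked genes. The cause was not tested. No paired analysis was possible because the control is 1 array and no test between groups was made.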
